A study of Mus musculus with 10 samples.

Results

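Testes of mouse embryos at E14.5 were set against testes at E12.5 (E for embryonic day, counted in days post coitum), as 2 arrays of each stage out of the 10 arrays of a time course from E11.5 to E18.5. Both stages are wild-type development as far as the labels say, with no treatment or allele named, and each array carried total RNA from an independent preparation of embryonic testis. The sources used here do not give the strain, how many embryos made 1 preparation or whether the mesonephros was taken off. The members were all genes of the array: 18193 genes were represented by a probe set, and 10916 of them passed a filter on low signal and were tested. Signals are linear intensities in the authors' array units, and each gene is represented by 1 probe set, so a level is compared between arrays and never between genes. A log2 change is the mean of log2(signal + 16) at E14.5 minus that at E12.5, given with ± the half-width of its 95% interval, and the added 16 makes it too small for dim genes. Adjusted p-values come from limma, with Benjamini-Hochberg adjustment over the 10916 genes, and a gene "rose" or "fell" where its adjusted p was under 0.05.

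In the mouse testis, Sertoli cells enclose the germ cells in cords after sex determination, and the cords become bounded by a basement membrane and a layer of peritubular muscle-like cells. Fetal Leydig cells arise in the interstitium between the cords. They take up and make cholesterol and turn it into androgens through a short chain of mitochondrial and microsomal enzymes, while desert hedgehog from Sertoli cells acts on interstitial cells. Male germ cells stop dividing in this period, lose pluripotency gene expression and switch on the piRNA pathway, which silences transposons.

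The tissue label was checked first. Sertoli cell markers were measured on every array, and the summed signal of the 26 with a probe set was 13776 and 16727 at E14.5, against 11982 and 13573 at E12.5. Such sums, here and below, cover every listed gene with a probe set, also those under the filter. Amh, the hormone of Sertoli cells that removes the Müllerian duct, was listed low on the first array of each stage, with 49.3 and 209.7 at E14.5, against 51 and 161.2 at E12.5. The authors had scaled each array to a 2%-trimmed mean signal of 125, and the median signal was 57.7 and 47.1 at E14.5, against 37 and 40.2 at E12.5. Over the tested genes the E14.5 arrays correlated with r = 0.9626 and the E12.5 arrays with r = 0.9762. Replicate 2 of E14.5 correlated with replicate 2 of E12.5 at r = 0.9585, and replicate 1 with replicate 1 at r = 0.9257. Actin signal at the 3' end over the 5' end, which depends on RNA integrity, was 1.64 and 2.50 at E14.5, against 1.93 and 2.03 at E12.5. All E14.5 arrays were scanned on one day and all E12.5 arrays on another, so scanning day and stage cannot be told apart. Replicate 1 of both stages went through fluidics module 1 and replicate 2 through module 2, so changes could also be taken within a module.

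Between these stages 574 genes changed, 5.26% of those tested, of which 385 rose (3.53%) and 189 fell (1.73%). The rises were also the larger changes: 33 genes rose and 4 fell by over 4-fold, and 219 rose and 53 fell by over 2-fold. The median log2 change of all tested genes was 0.03. Steroid and cholesterol synthesis, the piRNA pathway, meiotic chromosome cores, smooth muscle and fibrillar matrix held most of the rises among the 31 gene lists described here, and embryonic globins, Rhox homeobox genes and cell cycle genes were among the falls. The direction of a change depended on the level of a gene. With the tested genes ranked by mean level and split into 3 equal groups, the median log2 change of the lowest group was 0.20, with 171 genes that rose and 31 that fell, and that of the highest group was -0.17, with 81 that rose and 111 that fell. After quantile normalization these medians were -0.05 and -0.01.

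The counts rested on few arrays. Without E14.5 replicate 1 the test called 190 genes and without E12.5 replicate 1 it called 183, against 371 without E12.5 replicate 2 and 653 without E14.5 replicate 2. With the fluidics module as a block 593 genes rose and 410 fell, 1003 in all. When each array was centred on its median instead of its scaled mean, the median of all genes moved to -0.05 and 318 genes rose and 342 fell, so that rises were 48.2% of the calls in place of 67.1%. Falls of a modest size are therefore given below with this dependence on scaling in view. In a bulk sample, fewer cells of a type and less RNA per cell cannot be told apart, and this holds for every gene group that follows.

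**Figure D1:**
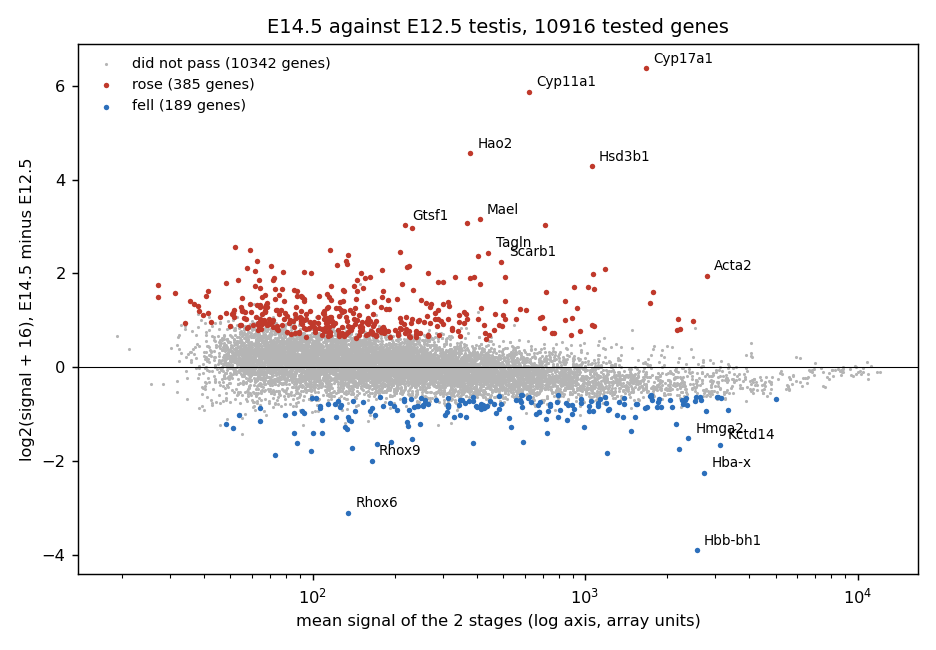
Log2 change (E14.5 minus E12.5, vertical axis) of each of the 10916 tested genes against its mean signal over both stages (log axis, array units), with the 385 genes that rose in red, the 189 that fell in blue and the others in grey. The named rises of steroid, piRNA and muscle genes reach a log2 change of 6.38, and the deepest fall is that of Hbb-bh1 at -3.90.

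Steroid synthesis genes included the 2 largest rises in the testis at E14.5, those of Cyp17a1 and Cyp11a1. Of 20 genes listed, 15 had a probe set and were tested, and 7 rose, 0 fell and 8 did not pass, with a median log2 change of 0.62 beside 0.03 over all tested genes (0.65 within module 1 and 0.58 within module 2). The number that rose was 7 without replicate 2 of either stage and 6 without replicate 1 of either. Cyp11a1, the side-chain cleavage enzyme that makes the first steroid from cholesterol, had 969.6 and 1508.3 at E14.5, against 5 and 4.5 at E12.5. Both E12.5 arrays were near the bottom of the signal range and both E14.5 arrays lay far above them, a 59.1-fold rise in signal + 16 (log2 change 5.88 ± 0.45, adjusted p = 1.86e-09). The added 16 exceeds both E12.5 signals, so it sets the size of that fold. Its 3 probe sets did not move alike, and with their mean the log2 change was 2.36. Cyp17a1, whose product turns progestins into androgen precursors, had 3131.9 and 3519.6 at E14.5, against 4.2 and 62.9 at E12.5. The E14.5 arrays were close to each other, while the E12.5 arrays differed, 1 being near 0. The log2 change was 6.38 ± 0.89 (adjusted p = 1.4e-06), and 5.40 without E12.5 replicate 1 and 7.37 without E12.5 replicate 2.

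Hsd3b1, a hydroxysteroid dehydrogenase of the step to progestins and a member of a family of similar copies that a probe may share, had 1961.7 and 2090.4 at E14.5, against 70.8 and 110 at E12.5 (log2 change 4.29 ± 0.45, adjusted p = 6.71e-08). Fdx1, the ferredoxin that passes electrons to the side-chain cleavage enzyme, had 1834.4 and 2015.1 at E14.5, against 416.1 and 457 at E12.5 (log2 change 2.10 ± 0.43, adjusted p = 4.06e-05). Star, which moves cholesterol into mitochondria, had 297 and 427.3 at E14.5, against 103.7 and 103.1 at E12.5 (log2 change 1.64 ± 0.40, adjusted p = 0.00019). For all of these, each E14.5 array lay above each E12.5 array. The 2 reductases of the last steps also rose. Hsd17b1, which reduces estrone, had 116.5 and 169.9 at E14.5, against 34.9 and 42.9 at E12.5 (log2 change 1.52 ± 0.53, adjusted p = 0.00257), and Hsd17b3, which in the fetal mouse testis makes testosterone from androstenedione in Sertoli cells, had 415.4 and 344.1 at E14.5, against 141.3 and 224.1 at E12.5 (log2 change 1.02 ± 0.44, adjusted p = 0.0111). Hsd17b3 is the call that ended without replicate 1 of either stage (adjusted p = 0.126 without E14.5 replicate 1 and 0.176 without E12.5 replicate 1).

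The 8 steroid synthesis genes that did not pass were mostly carriers and cofactors used in many cells. Stard4, a soluble cholesterol carrier, had 318.3 and 279.3 at E14.5, against 197.3 and 179.8 at E12.5 (log2 change 0.62 ± 0.42, adjusted p = 0.0798), and both E14.5 arrays lay above both E12.5 arrays. The cytochrome b5 genes Cyb5a and Cyb5b had log2 changes of -0.38 and 0.51. Vdac1, a mitochondrial channel, had -0.39. The other 4 had log2 changes between 0.10 and 0.25.

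The promoter of Cyp11a1 is shown because this gene had the smallest adjusted p of all and SF-1, the product of Nr5a1, is known to act on steroidogenic promoters. The run is chr9:58014702-58015001, plus strand, from RefSeq on GRCm38.p6, 250 bases before to 50 after the second of its 2 annotated starts, with the SF-1 core letters AGGTCA in capitals, 28 bases before the start.
Cyp11a1: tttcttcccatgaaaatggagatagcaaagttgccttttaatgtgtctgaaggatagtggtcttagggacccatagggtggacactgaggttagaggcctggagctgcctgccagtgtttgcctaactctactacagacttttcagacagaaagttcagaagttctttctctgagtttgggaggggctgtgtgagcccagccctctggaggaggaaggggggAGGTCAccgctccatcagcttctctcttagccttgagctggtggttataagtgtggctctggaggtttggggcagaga
Of the 15 steroid synthesis genes tested, 7 had a promoter in the table. The longer SF-1 site CAAGGTCA, read on both strands, was in 0 of the 7, and in 1.56% of all 32851 promoters. The core AGGTCA, which the longer site contains, was in 2 of the 7 (28.6%), those of Cyp11a1 and Vdac1, and in 16.3% of all promoters. Here and below, a share of a list counts genes with the letters in any of their promoters. A share of all promoters counts single promoters, so these shares are not counted alike. A match is a description of letters and not a measured site.

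**Figure D2:**
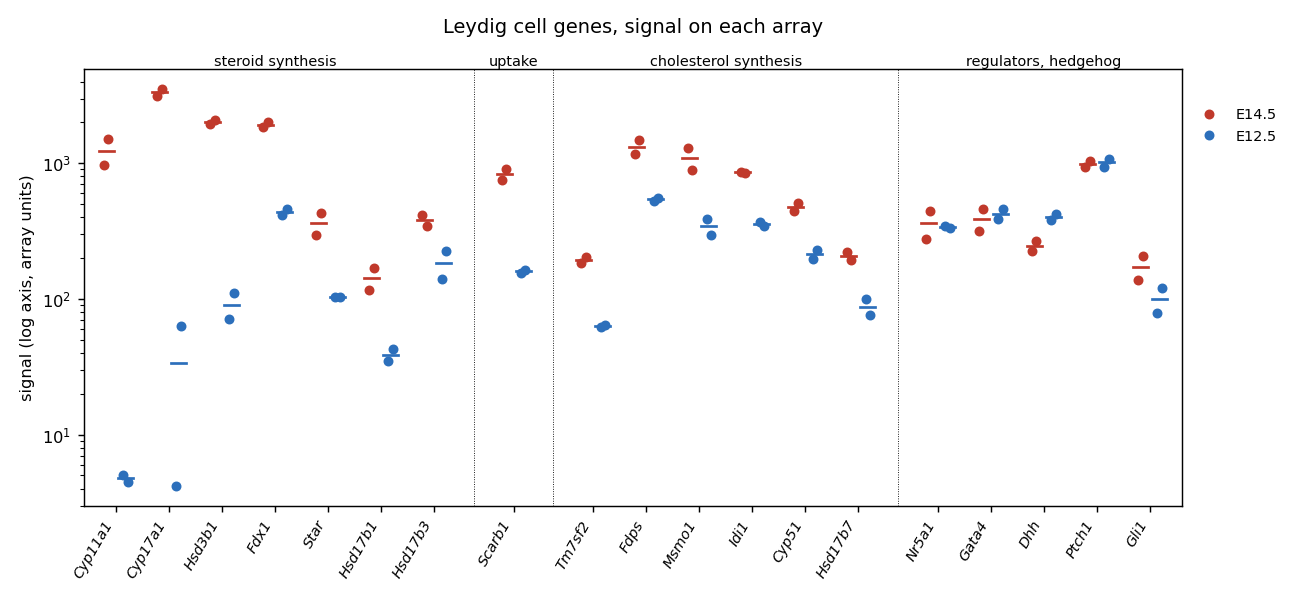
Signal on each array (log axis, array units) of genes of steroid synthesis, cholesterol uptake, cholesterol synthesis and of regulators and hedgehog signalling, with E14.5 in red left of E12.5 in blue, points for the 2 arrays and a bar for their mean. The stages are far apart for Cyp11a1, Cyp17a1 and Hsd3b1, apart for each cholesterol synthesis gene shown, and at like levels for Nr5a1, Gata4 and Ptch1.

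Most tested markers of fetal Leydig cells rose, also outside the enzymes. Of 20 listed genes, 17 had a probe set and 14 passed the filter; 11 rose, 1 fell and 2 did not pass, with a median log2 change of 1.57 (1.63 within module 1 and 1.32 within module 2). The list shares Cyp11a1, Cyp17a1, Hsd3b1 and Star with the enzymes above, so these counts include them. Insl3, Lhcgr and Ren1 had no probe set of their own and were not measured here. Pcsk1n, Sult1e1 and Bhmt were under the filter and were not tested. Counts of rises were 10 without E14.5 replicate 1, 11 without E14.5 replicate 2, 9 without E12.5 replicate 1 and 10 without E12.5 replicate 2. Scarb1, the receptor that takes cholesterol esters from high-density lipoprotein, had 748.8 and 904.6 at E14.5, against 156 and 164.6 at E12.5 (log2 change 2.25 ± 0.37, adjusted p = 6.05e-06). Each E14.5 array was more than 4-fold above either E12.5 array in signal. Itih5, a matrix-binding inhibitor heavy chain, had 322.8 and 350.3 at E14.5, against 70.8 and 107.6 at E12.5 (log2 change 1.77 ± 0.41, adjusted p = 0.000124). Cxcl12, a chemokine, had 1207.5 and 1258.4 at E14.5, against 389.1 and 520.8 at E12.5 (log2 change 1.42 ± 0.40, adjusted p = 0.000468).

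Thbs2, a thrombospondin, had 121.3 and 127.9 at E14.5, against 17.2 and 42.2 at E12.5 (log2 change 1.68 ± 0.51, adjusted p = 0.000837), and Gramd1b, a sterol transfer protein of the endoplasmic reticulum, had 315.3 and 233.8 at E14.5, against 88.2 and 82.4 at E12.5 (log2 change 1.51 ± 0.49, adjusted p = 0.00146). Aldh1a1, a retinaldehyde dehydrogenase, had 2529.7 and 3377.1 at E14.5, against 1318.1 and 1556.3 at E12.5 (log2 change 1.02 ± 0.42, adjusted p = 0.00784), and Vsnl1, a calcium sensor, had 102.1 and 97 at E14.5, against 33.3 and 34.6 at E12.5 (log2 change 1.21 ± 0.53, adjusted p = 0.0129). In these 4 genes as well, no E12.5 array reached an E14.5 array. The call of Aldh1a1 did not hold without E12.5 replicate 1. That of Vsnl1 did not hold without E14.5 replicate 1 or without either E12.5 array. The fall was that of Ldhb, a lactate dehydrogenase subunit, with 1014 and 1635 at E14.5, against 2951.8 and 3029.6 at E12.5 (log2 change -1.21 ± 0.50, adjusted p = 0.00847), a call that ended without replicate 1 of either stage (adjusted p = 0.107 without E14.5 replicate 1 and 0.062 without E12.5 replicate 1). Fads1, a fatty acid desaturase, had a log2 change of 0.44 and did not pass.

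The listed regulators of Leydig cells, which are transcriptional regulators and growth factors with their receptors, did not follow the enzymes. Of 17 tested regulators 1 rose, 1 fell and 15 did not pass (11.8% called, beside 5.26% of all tested genes). The median log2 change was 0.06, and 2 rose and 2 fell with the fluidics module as a block. Nr5a1, which encodes SF-1, had 278.7 and 446.2 at E14.5, against 344.9 and 334.4 at E12.5 (log2 change 0.05 ± 0.62, adjusted p = 0.924), and the E12.5 arrays lay between the E14.5 arrays. Gata4 had 314.5 and 458.5 at E14.5, against 387.3 and 459.6 at E12.5, with a log2 change of -0.15, and overlapped likewise. Pdgfrb, a platelet-derived growth factor receptor of interstitial and perivascular cells, had 544.3 and 506.6 at E14.5, against 323.8 and 358.7 at E12.5 (log2 change 0.60 ± 0.34, adjusted p = 0.043). Lhx9, a homeobox factor of the early gonad, had 1073.9 and 1206.7 at E14.5, against 1959.4 and 1985.7 at E12.5 (log2 change -0.78 ± 0.41, adjusted p = 0.0309). The call of Pdgfrb ended in each fit without 1 of the 4 arrays (adjusted p = 0.225 without E14.5 replicate 1, 0.0701 without E14.5 replicate 2, 0.298 without E12.5 replicate 1 and 0.0933 without E12.5 replicate 2), and that of Lhx9 in 3 of these 4 (adjusted p = 0.192 without E14.5 replicate 1, 0.185 without E12.5 replicate 1 and 0.103 without E12.5 replicate 2). Nr0b1, an antagonist of SF-1, had 45 and 37.5 at E14.5, against 80.3 and 79.9 at E12.5 (log2 change -0.75 ± 0.45, adjusted p = 0.0531), with both E14.5 arrays below both E12.5 arrays, and did not pass. Wt1, a zinc finger factor of Sertoli and surface cells, had a log2 change of -0.53 and Pdgfra, a growth factor receptor of Leydig cell precursors, of 0.20.

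Hedgehog signalling was measured from ligand to target. Dhh, the Sertoli cell ligand, had 227 and 265.4 at E14.5, against 381.2 and 424 at E12.5 (log2 change -0.68 ± 0.41, adjusted p = 0.0541), so that both E14.5 arrays lay below both E12.5 arrays without passing the test. Ptch1, its receptor and a target of the pathway, had 943.2 and 1036.7 at E14.5, against 944.5 and 1082.9 at E12.5 (log2 change -0.03 ± 0.37, adjusted p = 0.924), and the stages overlapped; with the mean of its probe sets the log2 change was 0.62 (adjusted p = 0.126). Gli1, another target, had 137 and 205.5 at E14.5, against 78.7 and 121 at E12.5 (log2 change 0.69 ± 0.57, adjusted p = 0.139), and did not pass. Of 15 tested genes of the pathway only Cdon, a hedgehog co-receptor, passed, with 408.4 and 462.7 at E14.5, against 227.6 and 273.1 at E12.5 (log2 change 0.76 ± 0.39, adjusted p = 0.0296), and that call ended without any 1 of the 4 arrays (adjusted p = 0.104 without E14.5 replicate 1, 0.0954 without E14.5 replicate 2, 0.26 without E12.5 replicate 1 and 0.0524 without E12.5 replicate 2) and when its probe sets were averaged (log2 change 0.13, adjusted p = 0.788). The list median was 0.17, and 1 call is 6.67% of the list, beside 5.26% of all tested genes. With the fluidics module as a block 2 rose and 1 fell. Boc and Gas1, the other co-receptors, had log2 changes of 0.47 and 0.26, and Hhip, an inhibitor that binds the ligand, had 0.61.

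Genes of adrenal-type steroid synthesis were listed because fetal testis can hold such cells. Of 9 genes 5 were tested, and 1 rose (20% of the list, beside 5.26% of all tested genes). This was Cyp21a1, the 21-hydroxylase, with 69.7 and 68.2 at E14.5, against 29.4 and 31.3 at E12.5 (log2 change 0.87 ± 0.50, adjusted p = 0.0454). The call ended without any 1 of the 4 arrays (adjusted p = 0.206 without E14.5 replicate 1, 0.09 without E14.5 replicate 2, 0.233 without E12.5 replicate 1 and 0.105 without E12.5 replicate 2) and when its probe sets were averaged (adjusted p = 0.398). Cyp11b1, the 11-hydroxylase, had 55.6 and 85.2 at E14.5, against 26.8 and 39.7 at E12.5 (log2 change 0.80 ± 0.59, adjusted p = 0.103), and Mc2r, the receptor of adrenocorticotropin, had 59.1 and 52 at E14.5, against 66.2 and 60.4 at E12.5. The list's summed signal was 971 and 1154 at E14.5, against 1025 and 1109 at E12.5. Most of that sum was Hsd11b2, with 404.5 and 405.8 at E14.5, against 528.3 and 605.8 at E12.5, and Nr5a1, given above. The 3 genes under the filter were not tested and had higher signals on both E14.5 arrays. Tested genes of the lowest level group also tended to be higher, with a median log2 change of 0.20, or -0.05 after quantile normalization. The share of all genes that lie higher on both E14.5 arrays is not given here. Mrap had 48.1 and 48.7 at E14.5, against 4.8 and 10.4 at E12.5. In the same order Cyp11b2 had 40.3 and 32, against 22.2 and 23, and Agtr1b 14.7 and 15.8, against 2.6 and 4.3. Hsd11b2 and Mc2r lay lower on both.

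Cholesterol synthesis genes rose along most of the pathway. Of 21 listed genes 18 were tested; 14 rose, 0 fell and 4 did not pass, with a median log2 change of 0.87 (0.88 within module 1 and 0.99 within module 2). The number that rose was 8 without E14.5 replicate 1, 9 without E14.5 replicate 2, 9 without E12.5 replicate 1 and 8 without E12.5 replicate 2, and 6 rose in each of these fits: Tm7sf2, Fdps, Msmo1, Idi1, Cyp51 and Hsd17b7. In the early, mevalonate part, Hmgcs1, which makes the precursor of mevalonate, had 2882.2 and 2789.6 at E14.5, against 1817 and 1422.5 at E12.5 (log2 change 0.81 ± 0.40, adjusted p = 0.0231). Mvk, mevalonate kinase, had 205.6 and 188 at E14.5, against 106.5 and 127.2 at E12.5 (log2 change 0.68 ± 0.36, adjusted p = 0.0309). Idi1, the isopentenyl diphosphate isomerase, had 862.5 and 849.7 at E14.5, against 368 and 345.1 at E12.5 (log2 change 1.23 ± 0.39, adjusted p = 0.00126). The E14.5 arrays lay above the E12.5 arrays for each of the 3.

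In the step to squalene and its ring closure, Fdps, farnesyl diphosphate synthase, had 1175.4 and 1474.6 at E14.5, against 525.1 and 557.2 at E12.5 (log2 change 1.26 ± 0.35, adjusted p = 0.000446). Fdft1, squalene synthase, had 594.2 and 695.1 at E14.5, against 308.5 and 377.1 at E12.5 (log2 change 0.88 ± 0.40, adjusted p = 0.014), but its probe sets differed, and with their mean the log2 change was 0.06 (adjusted p = 0.895). Sqle, squalene epoxidase, had a log2 change of 0.68 (adjusted p = 0.0255) and Lss, lanosterol synthase, of 0.95 (adjusted p = 0.0164). In the late part, which trims lanosterol to cholesterol, Tm7sf2, a sterol reductase, had 185.4 and 203.8 at E14.5, against 62.2 and 64.7 at E12.5 (log2 change 1.41 ± 0.34, adjusted p = 0.000164). Msmo1, the methylsterol monooxygenase, had 1291.7 and 888.7 at E14.5, against 391.5 and 298.1 at E12.5 (log2 change 1.60 ± 0.47, adjusted p = 0.000679). Cyp51, the lanosterol demethylase, had 447.7 and 508.5 at E14.5, against 197.9 and 230.1 at E12.5 (log2 change 1.10 ± 0.35, adjusted p = 0.00132). Within each stage the 2 arrays of these genes were closer to each other than to the other stage.

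Of the remaining late enzymes 4 rose. Hsd17b7, a sterol ketoreductase, had 221.8 and 194.9 at E14.5, against 100.1 and 75.7 at E12.5 (log2 change 1.12 ± 0.38, adjusted p = 0.00195), Nsdhl, a sterol dehydrogenase, had a log2 change of 0.99 (adjusted p = 0.00571), Sc5d, a sterol desaturase, of 0.87 (adjusted p = 0.0364) and Dhcr7, the last reductase, of 0.83 (adjusted p = 0.0386). Mvd, the mevalonate diphosphate decarboxylase, had 125.3 and 165.8 at E14.5, against 76.1 and 92.9 at E12.5 (log2 change 0.68 ± 0.46, adjusted p = 0.0808) and did not pass. Ebp, a late sterol isomerase, had 137.3 and 218.2 at E14.5, against 134.4 and 153.9 at E12.5 (log2 change 0.25 ± 0.47, adjusted p = 0.526). The stages overlapped, and it did not pass either. The other 2 that did not pass were Pmvk, phosphomevalonate kinase, and Ggps1, which makes geranylgeranyl diphosphate on a side branch, with log2 changes of 0.08 and -0.11. With the genes of low signal also tested, 10 of the 18 rose, and after quantile normalization 11.

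The Hmgcs1 promoter is shown as the cholesterol synthesis promoter that holds a sterol regulatory element, the letters through which SREBP factors are known to act. The run is chr13:119690101-119690400, plus strand (RefSeq, GRCm38.p6), with the element TCACNCCAC in capitals, 137 bases before the start.
Hmgcs1: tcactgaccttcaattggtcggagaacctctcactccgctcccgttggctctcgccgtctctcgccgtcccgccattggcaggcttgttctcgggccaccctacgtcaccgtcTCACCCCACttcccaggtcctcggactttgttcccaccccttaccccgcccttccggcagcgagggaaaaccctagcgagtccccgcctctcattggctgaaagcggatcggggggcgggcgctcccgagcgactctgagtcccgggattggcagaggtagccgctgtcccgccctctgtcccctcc
The element was searched on both strands and was in a promoter of 1 of 15 cholesterol synthesis genes (6.67%), and in 1.24% of all promoters. The factors themselves did not pass: Srebf2 had 161.6 and 218.9 at E14.5, against 119.8 and 158.7 at E12.5 (log2 change 0.41 ± 0.49, adjusted p = 0.299), and Scap, which escorts them, had 343.9 and 320.8 at E14.5, against 148.6 and 248 at E12.5 (log2 change 0.74 ± 0.57, adjusted p = 0.12). Of 15 tested genes of cholesterol supply and its control, Scarb1 above was the 1 that rose, and the list median was 0.31. That 1 call is 6.67% of the list, beside 5.26% of all tested genes. With the fluidics module as a block 3 rose. Insig1, a sterol-sensitive retention protein, had 394.8 and 657.7 at E14.5, against 290.9 and 377.7 at E12.5, with a log2 change of 0.60. Apoe, a lipoprotein component, had a log2 change of 0.55, Npc1, which exports cholesterol from lysosomes, of 0.55, and Plin2, a coat protein of lipid droplets, of -0.41; none of the 3 passed.

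Contractile genes of smooth and peritubular muscle rose at E14.5. All 22 listed genes had a probe set and 15 passed the filter; 7 rose, 0 fell and 8 did not pass, with a median log2 change of 0.69 (0.84 within module 1 and 0.37 within module 2). Leaving out single arrays, it was 5 without E14.5 replicate 1, 6 without E14.5 replicate 2, 5 without E12.5 replicate 1 and 6 without E12.5 replicate 2 that rose. Tagln, an actin-binding protein, had 779.4 and 730.4 at E14.5, against 99.8 and 157.9 at E12.5 (log2 change 2.44 ± 0.45, adjusted p = 1.74e-05). Acta2, smooth muscle actin, had 4282.1 and 4566.7 at E14.5, against 919.8 and 1394.9 at E12.5 (log2 change 1.95 ± 0.41, adjusted p = 4.98e-05). Its probe sets differed: with their mean the log2 change was 1.12, and without probe sets that can bind several transcripts the gene did not pass (log2 change 0.61, adjusted p = 0.283).

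Myh11, the smooth muscle myosin heavy chain, had 83.4 and 100.7 at E14.5, against 19.8 and 8.4 at E12.5 (log2 change 1.87 ± 0.57, adjusted p = 0.000998). Tpm2, a tropomyosin, had 757.8 and 869.9 at E14.5, against 295.5 and 379.3 at E12.5 (log2 change 1.24 ± 0.41, adjusted p = 0.00171), and Myl9, a regulatory myosin light chain, had 1472.2 and 1301.8 at E14.5, against 756.9 and 712.7 at E12.5 (log2 change 0.90 ± 0.33, adjusted p = 0.00402). Cnn2, a calponin, and Mylk, the kinase of the light chain, rose by less, with log2 changes of 0.69 (adjusted p = 0.0347) and 0.83 (adjusted p = 0.0401). Srf, the factor that binds CArG boxes, had 262.9 and 197 at E14.5, against 255.9 and 205 at E12.5 (log2 change -0.01 ± 0.48, adjusted p = 0.986), and the stages overlapped. Its coactivator Myocd had 349 and 110.7 at E14.5, against 97.7 and 91.4 at E12.5 (log2 change 0.96 ± 0.80, adjusted p = 0.144), a single high array at E14.5, and did not pass. Pdlim3, a partner of actinin that is in none of the lists, had 778.9 and 562 at E14.5, against 68.1 and 61.1 at E12.5 (log2 change 3.07 ± 0.56, adjusted p = 1.74e-05), and Casq2, a calcium store protein of cardiac and smooth muscle, had 373.6 and 370.2 at E14.5, against 68.4 and 75.9 at E12.5 (log2 change 2.14 ± 0.62, adjusted p = 0.000606).

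The promoters of Myl9 and Cnn2 are shown because they are the called genes of this list that hold a CArG box, in capitals. That of Myl9 is chr2:156775214-156775513, plus strand, with the box 161 bases before the start, and that of Cnn2 is chr10:79988350-79988649, plus strand, with the box 56 bases before it (RefSeq, GRCm38.p6).
Myl9: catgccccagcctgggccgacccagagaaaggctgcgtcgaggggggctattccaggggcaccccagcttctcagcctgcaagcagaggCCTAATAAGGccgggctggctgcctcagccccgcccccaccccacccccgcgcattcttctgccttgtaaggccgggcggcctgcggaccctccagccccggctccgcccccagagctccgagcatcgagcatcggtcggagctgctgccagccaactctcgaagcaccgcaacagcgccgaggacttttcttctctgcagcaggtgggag
Cnn2: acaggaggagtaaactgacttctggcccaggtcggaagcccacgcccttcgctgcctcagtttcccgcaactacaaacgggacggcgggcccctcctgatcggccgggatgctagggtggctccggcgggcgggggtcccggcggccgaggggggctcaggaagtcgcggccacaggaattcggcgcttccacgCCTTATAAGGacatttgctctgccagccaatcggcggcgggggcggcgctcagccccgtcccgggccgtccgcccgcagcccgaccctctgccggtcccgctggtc
A CArG box on either strand was in a promoter of 3 of the 12 smooth muscle genes searched (25%), the third being Srf, and in 1.63% of all promoters.

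Fibrillar matrix and stromal genes rose in number. Of 37 listed genes 33 were tested; 16 rose, 0 fell and 17 did not pass, with a median log2 change of 0.78 (0.82 within module 1 and 0.61 within module 2). The number that rose was 10 without E14.5 replicate 1, 12 without E14.5 replicate 2, 7 without E12.5 replicate 1 and 14 without E12.5 replicate 2. The collagen VI chains Col6a1 and Col6a2 had 1640.1 and 1788 at E14.5, against 312.2 and 553.2 at E12.5, and 2725.2 and 2630.2 at E14.5, against 790.6 and 963.7 at E12.5, with log2 changes of 2.00 (adjusted p = 0.000559) and 1.60 (adjusted p = 0.000119). Every E14.5 array lay above every E12.5 array for both chains. Col1a1, a chain of fibrillar collagen I, had 1208.8 and 2120.5 at E14.5, against 394.4 and 607.7 at E12.5 (log2 change 1.68 ± 0.60, adjusted p = 0.00337), and Col1a2, its partner chain, a log2 change of 0.98 (adjusted p = 0.00907).

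Small proteoglycans moved the same way. Ogn, osteoglycin, had 391.9 and 368.3 at E14.5, against 63.5 and 81.3 at E12.5 (log2 change 2.17 ± 0.50, adjusted p = 0.000124), Aspn, asporin, had 97.5 and 119.1 at E14.5, against 9.5 and 19.4 at E12.5 (log2 change 2.04 ± 0.51, adjusted p = 0.00021), and Dcn, decorin, had 2563.1 and 2445.8 at E14.5, against 883.5 and 1041.4 at E12.5 (log2 change 1.37 ± 0.37, adjusted p = 0.000397). Bgn, biglycan, had a log2 change of 1.05 (adjusted p = 0.00337). Elastic fibre genes included Fbln5, with 287.6 and 328.3 at E14.5, against 91.5 and 112.3 at E12.5 (log2 change 1.46 ± 0.45, adjusted p = 0.000998), and the crosslinking enzymes Lox and Loxl1, with log2 changes of 1.27 (adjusted p = 0.00506) and 1.03 (adjusted p = 0.0386). Igf1, a growth factor of stromal cells, had 648.6 and 725.6 at E14.5, against 296 and 321.8 at E12.5 (log2 change 1.11 ± 0.39, adjusted p = 0.00248). Mfap4, Col16a1, Igfbp3 and Col6a3 also rose, with log2 changes of 1.43, 0.78, 1.00 and 0.80. Col3a1, collagen III, had 4303.1 and 5210.5 at E14.5, against 2809.7 and 3926.5 at E12.5 (log2 change 0.51 ± 0.38, adjusted p = 0.111) and did not pass.

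Some Sertoli cell markers rose. Of 29 listed genes 24 were tested; 5 rose, 0 fell and 19 did not pass, and the median log2 change was -0.08. The number that fell was 3 after centring on medians, 4 with the fluidics module as a block and 2 without E14.5 replicate 2. Defb19, a beta-defensin of Sertoli cells, had 1276.5 and 1520.6 at E14.5, against 305.1 and 553.8 at E12.5 (log2 change 1.72 ± 0.52, adjusted p = 0.000837). Clu, clusterin, a secreted chaperone, had 1217.2 and 1951 at E14.5, against 386.4 and 546.1 at E12.5 (log2 change 1.71 ± 0.52, adjusted p = 0.000939). Inha, the inhibin alpha subunit, had 641.8 and 847.6 at E14.5, against 249.1 and 290.7 at E12.5 (log2 change 1.40 ± 0.46, adjusted p = 0.00171). These 3 rose in each fit without 1 of the 4 arrays, while the calls of Ctsl, a lysosomal protease (log2 change 0.78), and Gstm6, a glutathione transferase (log2 change 1.04), ended in some of them, at adjusted p = 0.0587 without E14.5 replicate 2, 0.148 without E12.5 replicate 1 and 0.0621 without E12.5 replicate 2 for Ctsl and adjusted p = 0.106 without E14.5 replicate 1, 0.17 without E14.5 replicate 2 and 0.381 without E12.5 replicate 1 for Gstm6. With the mean of its probe sets the log2 change of Ctsl was -0.03, so its direction rests on 1 probe set.

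Sox9, the factor that sets Sertoli fate, had 60.3 and 93.2 at E14.5, against 139.2 and 126.8 at E12.5 (log2 change -0.71 ± 0.50, adjusted p = 0.0943), with both E14.5 arrays below both E12.5 arrays, and did not pass. Fshr, the receptor of follicle-stimulating hormone, had 58.7 and 37.6 at E14.5, against 18.7 and 21.3 at E12.5 (log2 change 0.81 ± 0.71, adjusted p = 0.157). Col9a3 had 101 and 314.1 at E14.5, against 385.3 and 489.2 at E12.5 (log2 change -1.20 ± 0.79, adjusted p = 0.0747), with E14.5 replicate 1 far below the other E14.5 array. Amhr2, the receptor of anti-Müllerian hormone, is in no list and was among the largest falls, with 362.9 and 415.4 at E14.5, against 1186.9 and 930.8 at E12.5 (log2 change -1.40 ± 0.55, adjusted p = 0.00558).

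Most basement membrane and cord adhesion genes did not pass. Of 34 tested genes 3 rose, 1 fell and 30 did not pass (11.8% called, beside 5.26% of all tested genes). The median log2 change was 0.30. With the fluidics module as a block 5 rose and 2 fell. Col4a4, a collagen IV chain, had 103.8 and 140.1 at E14.5, against 9.3 and 36.7 at E12.5 (log2 change 1.91 ± 0.64, adjusted p = 0.00198), and rose in each fit without 1 of the 4 arrays. Lama2, a laminin chain, had 154.8 and 95 at E14.5, against 42.5 and 51.7 at E12.5 (log2 change 1.13 ± 0.53, adjusted p = 0.0189), and Itga9, an integrin chain, had 259.4 and 316.8 at E14.5, against 120.7 and 170.3 at E12.5 (log2 change 0.92 ± 0.41, adjusted p = 0.014). Itga8, an integrin chain of mesenchyme, had 293.3 and 370.9 at E14.5, against 688 and 743.7 at E12.5 (log2 change -1.08 ± 0.43, adjusted p = 0.00654). Of these 3 calls, Lama2 ended at adjusted p = 0.206 without E14.5 replicate 1 and 0.168 without E12.5 replicate 1, Itga9 at adjusted p = 0.068 without E14.5 replicate 2 and 0.197 without E12.5 replicate 1 and Itga8 at adjusted p = 0.0977 without E14.5 replicate 1. The main chains of the cord basement membrane did not pass: Col4a1 had a log2 change of 0.39, Lama1 of 0.23 and Nid1, nidogen, of 0.19.

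Among 21 epithelial junction genes 1 rose: Cldn1, a claudin of tight junctions, had 62.4 and 73.7 at E14.5, against 12.4 and 14.2 at E12.5 (log2 change 1.52 ± 0.48, adjusted p = 0.00126), and rose in each fit without 1 of the 4 arrays. This 1 call is 4.76% of the list, beside 5.26% of all tested genes, and with the fluidics module as a block 2 rose and 2 fell. Cdh2, the neural cadherin, had 236.9 and 293.5 at E14.5, against 457.9 and 386.3 at E12.5 (log2 change -0.64 ± 0.38, adjusted p = 0.0525) and Krt8, a keratin, had 158 and 205.4 at E14.5, against 260.8 and 302.3 at E12.5 (log2 change -0.60 ± 0.39, adjusted p = 0.0724); both lay lower on each E14.5 array and neither passed. The list median was -0.10.

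Among the germ cell lists the piRNA pathway had the highest median. Of 22 listed genes 20 had a probe set and 16 were tested; 12 rose, 0 fell and 4 did not pass, with a median log2 change of 1.41 (1.55 within module 1 and 1.33 within module 2). The number that rose was 10 without E14.5 replicate 1, 8 without E14.5 replicate 2, 9 without E12.5 replicate 1 and 10 without E12.5 replicate 2. Mael, a component of germ granules, had 629.9 and 872.7 at E14.5, against 71.5 and 66.2 at E12.5 (log2 change 3.16 ± 0.54, adjusted p = 8.74e-06). Gtsf1, a zinc finger partner of Piwi proteins, had 345.2 and 458.6 at E14.5, against 38.5 and 31 at E12.5 (log2 change 3.03 ± 0.63, adjusted p = 4.98e-05). Piwil4, the Piwi protein that directs transposon methylation, had 87.6 and 113.8 at E14.5, against 0.9 and 6.4 at E12.5 (log2 change 2.58 ± 0.59, adjusted p = 0.000119). For all 3 both E12.5 arrays lay well below both E14.5 arrays, those of Piwil4 near 0. The Piwil4 call came from a probe set that can bind several transcripts, and without such probe sets its log2 change was 0.57 with adjusted p = 0.364.

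Tdrd9, a helicase of the pathway, had 56.4 and 44.7 at E14.5, against 3.1 and 4.2 at E12.5 (log2 change 1.75 ± 0.42, adjusted p = 0.000158), and Tdrd5, a Tudor protein of germ granules, had 189.9 and 265.5 at E14.5, against 50.5 and 74.4 at E12.5 (log2 change 1.63 ± 0.45, adjusted p = 0.00041). Stk31, a Tudor domain kinase, had 614.5 and 634.6 at E14.5, against 198.5 and 116.1 at E12.5 (log2 change 1.93 ± 0.53, adjusted p = 0.000446), and Morc1, which silences transposons, had 184 and 274.9 at E14.5, against 47.2 and 24 at E12.5 (log2 change 2.26 ± 0.64, adjusted p = 0.000508). Mov10l1, the helicase that starts piRNA production, had 154.7 and 130.6 at E14.5, against 41.9 and 37.5 at E12.5 (log2 change 1.51 ± 0.43, adjusted p = 0.000508). Piwil2, the Piwi protein already used in fetal germ cells, rose by less, with 136 and 168.9 at E14.5, against 79.4 and 74.1 at E12.5 (log2 change 0.85 ± 0.36, adjusted p = 0.00988). Close to the threshold, Tdrd7, Exd1 and Asz1 had log2 changes of 1.32 (adjusted p = 0.0188), 1.05 (adjusted p = 0.0338) and 0.97 (adjusted p = 0.0455). Ddx4, Rnf17, Tdrd12 and Tdrkh did not pass, with log2 changes of 0.91, 0.79, 0.59 and -0.51. Gpat2, an acyltransferase linked to piRNA production in mouse testis and in none of the lists, had 130.9 and 93 at E14.5, against 8.6 and 4.2 at E12.5 (log2 change 2.50 ± 0.65, adjusted p = 0.000281). With the genes of low signal also tested, 9 of the 16 piRNA pathway genes rose, and after quantile normalization 9.

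**Figure D3:**
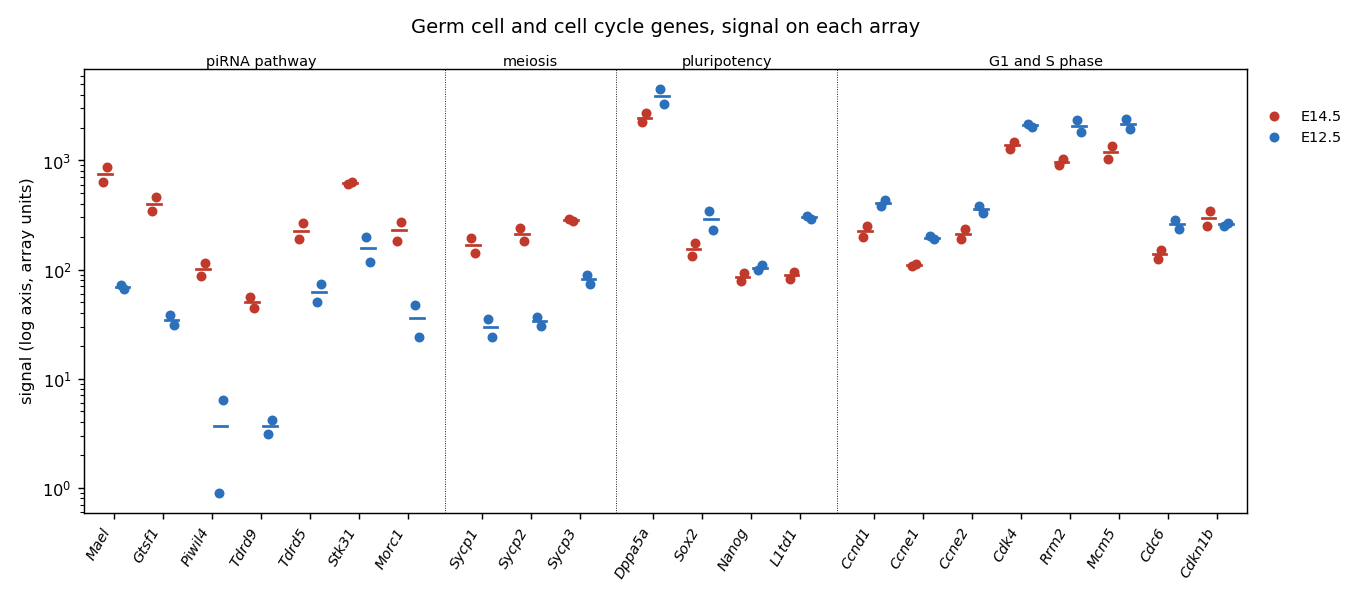
Signal on each array (log axis, array units) of piRNA pathway, meiosis, pluripotency and G1 and S phase genes, with E14.5 in red left of E12.5 in blue, points for the 2 arrays and a bar for their mean. The piRNA and meiosis genes lie higher on both E14.5 arrays, L1td1 and the S phase genes lower, and Nanog and Cdkn1b close together.

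Most germ cell identity genes did not pass. Of 11 tested germ cell identity genes 3 rose, 0 fell and 8 did not pass, with a median log2 change of 0.79. The number that rose was 6 with the fluidics module as a block, 6 in a fit of the 4 arrays alone and 5 after quantile normalization. Beside Mov10l1, Tex14, a kinase of the bridges between germ cells, had 213 and 252.5 at E14.5, against 99.8 and 71.1 at E12.5 (log2 change 1.30 ± 0.48, adjusted p = 0.00413), and both rose in each fit without 1 of the 4 arrays. Dazl, which binds RNA in germ cells, had 1302.2 and 1504.1 at E14.5, against 815.9 and 686.1 at E12.5 (log2 change 0.89 ± 0.51, adjusted p = 0.0455), a call that ended without any 1 array (adjusted p = 0.152 without E14.5 replicate 1, 0.134 without E14.5 replicate 2, 0.149 without E12.5 replicate 1 and 0.168 without E12.5 replicate 2). Ddx4, the germ cell helicase vasa, had 605.2 and 839.7 at E14.5, against 382.4 and 362.4 at E12.5 (log2 change 0.91 ± 0.55, adjusted p = 0.0572), above E12.5 on both E14.5 arrays without passing. Kit, the receptor of stem cell factor, had 91.1 and 105 at E14.5, against 173.8 and 126.2 at E12.5 (log2 change -0.53 ± 0.41, adjusted p = 0.119).

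Some meiotic chromosome genes rose in this male tissue. Of 30 listed genes of meiosis and retinoic acid 29 had a probe set and 18 passed the filter. Of these 7 rose, 0 fell and 11 did not pass, with a median log2 change of 0.59 and a range from -0.92 to 2.19. After quantile normalization 2 fell, and with the fluidics module as a block 1 fell. The number that rose was 5 without E14.5 replicate 1, 6 without E14.5 replicate 2, 4 without E12.5 replicate 1 and 5 without E12.5 replicate 2. The 3 core proteins of the synaptonemal complex rose in each of those fits. Sycp1 had 192.7 and 142.9 at E14.5, against 35.4 and 24.2 at E12.5 (log2 change 2.00 ± 0.54, adjusted p = 0.000403), Sycp2 had 240.4 and 182.6 at E14.5, against 37 and 30.1 at E12.5 (log2 change 2.19 ± 0.53, adjusted p = 0.000164), and Sycp3 had 289.8 and 275.9 at E14.5, against 88.4 and 73.7 at E12.5 (log2 change 1.63 ± 0.44, adjusted p = 0.000397). No E12.5 array came near an E14.5 array for any of the 3. Spo11, which makes meiotic breaks, had 82.6 and 73.6 at E14.5, against 28.4 and 20.8 at E12.5 (log2 change 1.22 ± 0.56, adjusted p = 0.0165), and Tex15, a germ cell factor of transposon silencing, had 1058.8 and 586.5 at E14.5, against 211 and 184 at E12.5 (log2 change 1.92 ± 0.71, adjusted p = 0.00418). Aldh1a1, given above, and Rbp4, a retinol carrier (log2 change 0.95), are the other 2 rises and belong to retinoid handling. Cyp26b1, which degrades retinoic acid in the fetal testis, had 169.1 and 181.6 at E14.5, against 185.5 and 217.9 at E12.5 (log2 change -0.18 ± 0.47, adjusted p = 0.647), and the stages were close together.

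Pluripotency genes did not move as a block. Of 16 tested genes 1 rose, 1 fell and 14 did not pass, with a median log2 change of -0.19. L1td1, an RNA-binding protein of pluripotent cells, had 81.8 and 95.5 at E14.5, against 311.9 and 289.5 at E12.5 (log2 change -1.60 ± 0.39, adjusted p = 0.00019), and fell in each fit without 1 of the 4 arrays. Dppa4, a chromatin protein, had 862.4 and 973.3 at E14.5, against 547.7 and 344 at E12.5 (log2 change 1.05 ± 0.52, adjusted p = 0.0239), a call that ended at adjusted p = 0.108 without E14.5 replicate 1, 0.0838 without E14.5 replicate 2 and 0.149 without E12.5 replicate 2. Sox2 had 132.9 and 174.8 at E14.5, against 344.5 and 231.4 at E12.5 (log2 change -0.83 ± 0.51, adjusted p = 0.0618), with both E14.5 arrays below both E12.5 arrays, and did not pass. Nanog had 77.9 and 92.5 at E14.5, against 98.8 and 109.5 at E12.5 (log2 change -0.25 ± 0.53, adjusted p = 0.573), and Pou5f1, which encodes Oct4, had 197.4 and 219.9 at E14.5, against 309.2 and 175.4 at E12.5, overlapping between stages. Dppa5a had 2232.2 and 2703.5 at E14.5, against 4483.4 and 3295.2 at E12.5 (log2 change -0.64 ± 0.46, adjusted p = 0.0981).

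Nodal signalling, which holds male germ cells in a pluripotent state, gave 1 rise among 12 tested genes. This is 8.33% of the list, beside 5.26% of all tested genes. Inhba, the activin subunit, had 424.3 and 125.9 at E14.5, against 55.4 and 44.1 at E12.5 (log2 change 1.93 ± 1.00, adjusted p = 0.0305), with 1 array of E14.5 far above the other, and the call ended at adjusted p = 0.295 without E14.5 replicate 1, 0.123 without E12.5 replicate 1 and 0.102 without E12.5 replicate 2. Lefty1, an inhibitor and target of Nodal, had 79.3 and 99.2 at E14.5, against 160.2 and 157.7 at E12.5 (log2 change -0.74 ± 0.48, adjusted p = 0.0701). Of 9 tested DNA methylation genes 0 passed in limma and 4 had an unadjusted p under 0.05, beside 2542 of all 10916 tested genes. The list median was -0.06. Dnmt3l, the cofactor of methylation in male germ cells, had 74.1 and 48.2 at E14.5, against 10.2 and 43.2 at E12.5 (log2 change 0.95 ± 0.69, adjusted p = 0.1), and Uhrf1, which guides maintenance methylation, had 368.4 and 555.1 at E14.5, against 646.9 and 689.9 at E12.5 (log2 change -0.55 ± 0.49, adjusted p = 0.174).

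Cyclins and a kinase that carry cells from G1 into S phase fell, while the inhibitors did not pass. Of 22 tested genes of the G1 arrest list 0 rose, 4 fell and 18 did not pass (18.2% called, beside 5.26% of all tested genes). The median log2 change was 0.08. Ccnd1, cyclin D1, had 200.2 and 248.5 at E14.5, against 380.8 and 432.4 at E12.5 (log2 change -0.82 ± 0.37, adjusted p = 0.0149). Ccne1 and Ccne2, the cyclins E, had 107.4 and 112.9 at E14.5, against 201.3 and 191.8 at E12.5, and 192.4 and 233.4 at E14.5, against 380.4 and 332.4 at E12.5, with log2 changes of -0.75 (adjusted p = 0.0316) and -0.70 (adjusted p = 0.0298). Cdk4, the kinase of D cyclins, had 1281.4 and 1476.6 at E14.5, against 2170.5 and 2027.6 at E12.5 (log2 change -0.60 ± 0.33, adjusted p = 0.0373). All 4 lay lower on both E14.5 arrays. The number that fell was 0 without E14.5 replicate 1, 3 without E14.5 replicate 2, 0 without E12.5 replicate 1 and 0 without E12.5 replicate 2. It was 2 with the mean of all probe sets of a gene and 2 without probe sets that can bind several transcripts, where Ccne1 (adjusted p = 0.857) and Cdk4 (adjusted p = 0.23) did not pass. The list median, near 0, thus does not share the sign of these 4. The inhibitors did not pass: Cdkn1b, p27, had 250.2 and 343 at E14.5, against 250 and 267.8 at E12.5, with a log2 change of 0.17, Cdkn2c, p18, of 0.54 and Rb1, the retinoblastoma protein, of 0.50.

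The DNA replication genes that passed also fell. Of 43 tested genes 0 rose, 5 fell and 38 did not pass (11.6% called, beside 5.26% of all tested genes). The median log2 change was -0.51 (-0.64 within module 1 and -0.35 within module 2). A lower mean at E14.5 was found for 37 of the 43, beside 47.1% of all tested genes and 69.8% of those in the highest level group, and the list median was -0.34 after quantile normalization. Rrm2, a subunit of ribonucleotide reductase, had 917.6 and 1036.1 at E14.5, against 2344.6 and 1810.1 at E12.5 (log2 change -1.07 ± 0.42, adjusted p = 0.00609). Mcm5 and Mcm4, subunits of the replicative helicase, had 1035.3 and 1360.8 at E14.5, against 2398.4 and 1952.4 at E12.5, and 678.5 and 1038.5 at E14.5, against 1712 and 1455.9 at E12.5, with log2 changes of -0.86 (adjusted p = 0.0328) and -0.90 (adjusted p = 0.0238). Cdc6, which loads the helicase, had 125.1 and 151.2 at E14.5, against 284.6 and 233.1 at E12.5 (log2 change -0.83 ± 0.46, adjusted p = 0.0372), and Mcm7, another subunit, had a log2 change of -0.64 (adjusted p = 0.0453). The number that fell was 0 without E14.5 replicate 1, 5 without E14.5 replicate 2, 0 without E12.5 replicate 1 and 2 without E12.5 replicate 2, and 2 after quantile normalization, against 9 after centring on medians and 13 with the fluidics module as a block. Without probe sets that can bind several transcripts the Mcm5 call ended (log2 change -0.35, adjusted p = 0.33), as did those of Mcm4 (adjusted p = 0.0923) and Mcm7 (adjusted p = 0.0518). Pcna, the sliding clamp, had 4011.5 and 3705.3 at E14.5, against 6024.4 and 5286.8 at E12.5 (log2 change -0.55 ± 0.41, adjusted p = 0.11), lower on both E14.5 arrays without passing.

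Most mitotic genes did not pass. Of 41 tested genes 1 rose, 1 fell and 39 did not pass (4.88% of the list, beside 5.26% of all tested genes), with a median log2 change of -0.35, or -0.17 after quantile normalization. The number that fell was 6 after centring on medians, 8 with the fluidics module as a block and 5 without E14.5 replicate 2. Kif22, a chromosome kinesin, had 1009.4 and 1337 at E14.5, against 2236.1 and 2051.1 at E12.5 (log2 change -0.87 ± 0.47, adjusted p = 0.0356), and Cdc25b, a phosphatase that activates Cdk1, had 218.7 and 202.5 at E14.5, against 117.1 and 114.8 at E12.5 (log2 change 0.78 ± 0.38, adjusted p = 0.0229). The Kif22 call ended at adjusted p = 0.263 without E14.5 replicate 1, 0.235 without E12.5 replicate 1 and 0.0872 without E12.5 replicate 2 and without probe sets that can bind several transcripts (adjusted p = 0.232), and the Cdc25b call at adjusted p = 0.153 without E14.5 replicate 1, 0.148 without E12.5 replicate 1 and 0.0866 without E12.5 replicate 2. Mki67, a marker of cycling cells, had 1333.5 and 1440.8 at E14.5, against 1587.1 and 1537.4 at E12.5 (log2 change -0.17 ± 0.36, adjusted p = 0.572), and Cdk1 had a log2 change of -0.44. A lower mean at E14.5 was found for 37 of the 41, beside 47.1% of all tested genes and 69.8% of those in the highest level group. These transcripts come from all dividing cells of the testis, so the values do not separate germ cells from Sertoli or interstitial cells.

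Promoters of Cdc6, Mcm5 and Kif22 are shown as those of called cell cycle genes with E2F or CHR letters, which are known elements of S phase and of G2 and mitosis promoters. They are chr11:98907901-98908200, plus strand with the E2F site 138 bases before the start, chr8:75109259-75109558, plus strand with overlapping E2F sites 153 and 149 bases before it, and chr7:127042371-127042670, minus strand with CHR elements 215 and 17 bases before it (RefSeq, GRCm38.p6). Capitals mark the sites.
Cdc6: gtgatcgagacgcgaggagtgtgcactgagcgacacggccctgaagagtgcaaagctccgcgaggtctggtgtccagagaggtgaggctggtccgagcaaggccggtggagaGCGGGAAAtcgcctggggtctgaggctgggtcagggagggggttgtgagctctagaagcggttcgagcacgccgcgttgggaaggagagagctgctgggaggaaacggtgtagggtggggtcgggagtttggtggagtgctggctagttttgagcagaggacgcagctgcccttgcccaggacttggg
Mcm5: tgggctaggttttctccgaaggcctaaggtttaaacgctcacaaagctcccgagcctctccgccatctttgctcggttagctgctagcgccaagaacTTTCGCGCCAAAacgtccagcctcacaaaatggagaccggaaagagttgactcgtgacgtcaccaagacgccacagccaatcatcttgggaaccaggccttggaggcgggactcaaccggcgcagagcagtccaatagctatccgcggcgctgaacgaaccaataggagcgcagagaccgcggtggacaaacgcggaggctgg
Kif22: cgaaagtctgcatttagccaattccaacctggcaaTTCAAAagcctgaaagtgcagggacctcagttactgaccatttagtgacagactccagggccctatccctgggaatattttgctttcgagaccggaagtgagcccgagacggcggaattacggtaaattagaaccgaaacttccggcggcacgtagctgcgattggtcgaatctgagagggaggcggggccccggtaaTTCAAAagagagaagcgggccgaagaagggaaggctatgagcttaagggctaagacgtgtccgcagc
An E2F site (TTTCCCGC, TTTGGCGC, TTTCGCGC or TTTGCCGC, either strand) was in a promoter of 14 of 35 S phase genes (40%), and in 2.26% of all promoters. Of the S phase genes that fell, 4 had a promoter in the table, and 3 of them (Mcm5, Mcm7 and Cdc6) held a site. The CHR element TTTGAA, on either strand, was in a promoter of 27 of 35 genes of the mitosis list (77.1%), and in 17.9% of all promoters.

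**Figure D4:**
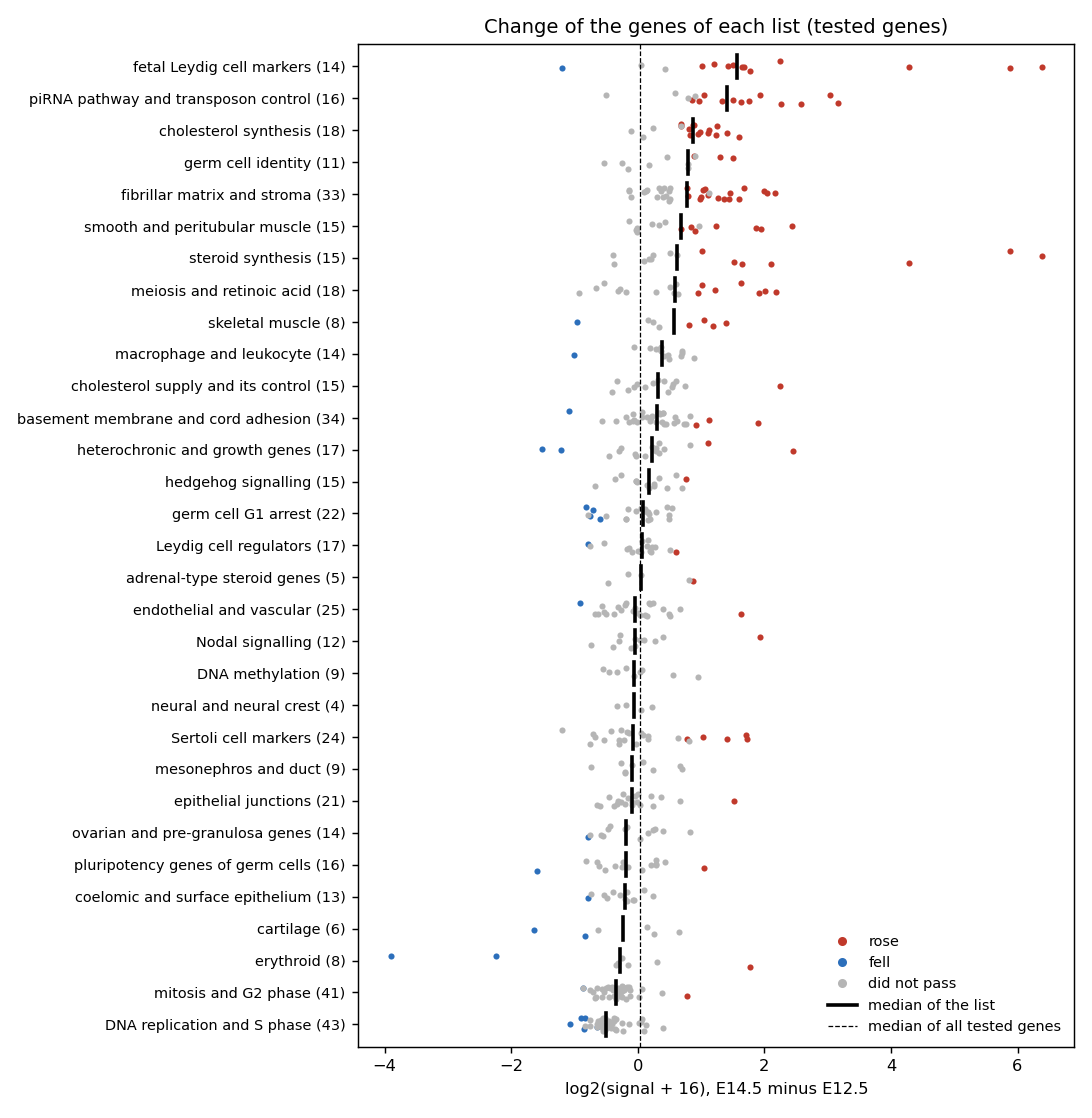
Log2 change (E14.5 minus E12.5, horizontal axis) of every tested gene in each of the 31 lists, with the number of tested genes in brackets, red for genes that rose, blue for those that fell and grey for those that did not pass, a bar for the list median and a dashed line for the median of all tested genes. The fetal Leydig marker and piRNA lists have the highest medians, 1.57 and 1.41, and the S phase list the lowest, -0.51.

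Genes known for a change between embryonic and later growth also moved. Nfix, a nuclear factor I transcription factor, had 363 and 366.8 at E14.5, against 57.3 and 49.8 at E12.5 (log2 change 2.46 ± 0.36, adjusted p = 1.92e-06), with arrays within each stage nearly equal. Its 5 probe sets differed, and with their mean the log2 change was 1.34. Hmga2, a chromatin protein of embryonic cells, had 1188.9 and 1260.6 at E14.5, against 3835.8 and 3256.9 at E12.5 (log2 change -1.52 ± 0.39, adjusted p = 0.000281). Igf2bp1, an RNA-binding protein of embryonic growth, had 137.5 and 148.8 at E14.5, against 371.1 and 332.4 at E12.5 (log2 change -1.21 ± 0.46, adjusted p = 0.00465), a call that ended at adjusted p = 0.0576 without E14.5 replicate 1 and 0.0585 without E12.5 replicate 1. With Igf1 above, these were the 2 rises and 2 falls among 17 tested genes (23.5% called, beside 5.26% of all tested genes). The list median was 0.23.

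Of the 25 largest falls, 3 were Rhox genes, X-linked homeobox genes of reproductive tissue whose copies are similar enough that a probe may share them. Rhox6 had 9.3 and 21.4 at E14.5, against 315.8 and 195.4 at E12.5 (log2 change -3.11 ± 0.62, adjusted p = 3.47e-05), Rhox9 had 65.2 and 47.9 at E14.5, against 298.7 and 247.9 at E12.5 (4-fold lower at E14.5, adjusted p = 0.000279), and Rhox5 had 656.6 and 476.2 at E14.5, against 1727.4 and 1109.6 at E12.5 (log2 change -1.28 ± 0.57, adjusted p = 0.0127). Both E14.5 arrays were below both E12.5 arrays in each case. Kctd14 had 1427.1 and 1576.4 at E14.5, against 4562.8 and 4976.8 at E12.5 (log2 change -1.66 ± 0.33, adjusted p = 3.62e-05), and Efhd2, a calcium-binding protein, had 152.2 and 215.1 at E14.5, against 634.9 and 549.4 at E12.5 (log2 change -1.62 ± 0.40, adjusted p = 0.000209). The other probe set of Efhd2 had a log2 change of 0.06 (adjusted p = 0.902), so the fall of this gene rests on 1 probe set. The interferon-inducible guanylate-binding genes Gbp2 and Gbp2b had log2 changes of -1.79 and -1.72. Dusp4, a phosphatase of MAP kinases, had 19.9 and 24.6 at E14.5, against 131.6 and 115.1 at E12.5 (log2 change -1.87 ± 0.56, adjusted p = 0.000831), Klhl13, an adaptor of ubiquitin ligases, a log2 change of -1.83, and Tgfbi, a matrix protein induced by TGF-beta, of -1.37. Nme1 had 606.3 and 1571.6 at E14.5, against 3887 and 2799 at E12.5 (log2 change -1.74 ± 1.01, adjusted p = 0.0477), a fall close to the threshold with arrays of E14.5 far apart, and it did not pass without probe sets that can bind several transcripts (adjusted p = 0.137).

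The 25 largest rises held further genes that are in none of the lists. Hao2, a hydroxyacid oxidase, had 835.8 and 647.3 at E14.5, against 11.2 and 20.9 at E12.5 (log2 change 4.57 ± 0.50, adjusted p = 8.38e-08). Adh1, an alcohol dehydrogenase, had 869.2 and 1712.2 at E14.5, against 124.2 and 147 at E12.5 (log2 change 3.03 ± 0.58, adjusted p = 2.78e-05), and Gsta2, a glutathione transferase with similar copies, had 233.7 and 243.1 at E14.5, against 28.8 and 36.4 at E12.5 (log2 change 2.39 ± 0.39, adjusted p = 6.05e-06). Ephx1, the microsomal epoxide hydrolase, had 185.2 and 277.5 at E14.5, against 34.4 and 39.9 at E12.5 (log2 change 2.19 ± 0.50, adjusted p = 0.000119). All 4 were higher on both E14.5 arrays. Cebpa, a transcription factor of metabolic cells, had 91.3 and 116 at E14.5, against 14.6 and 8.9 at E12.5 (log2 change 2.11 ± 0.67, adjusted p = 0.00129), Kcnk3, a potassium channel, had a log2 change of 2.27 (adjusted p = 4.98e-05), and Bcan, a proteoglycan, of 2.50 (adjusted p = 0.000939), or 0.68 from its other probe set (adjusted p = 0.102). Afp, alpha-fetoprotein, a product of fetal liver and yolk sac, had 512.1 and 822 at E14.5, against 229 and 51.6 at E12.5 (log2 change 2.37 ± 0.92, adjusted p = 0.0055).

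Some blood transcripts changed. Hbb-bh1 and Hba-x, embryonic globins of primitive red cells, had 281.1 and 335.8 at E14.5, against 5021.3 and 4627 at E12.5, and 784.8 and 1125 at E14.5, against 4409.2 and 4646.3 at E12.5, with log2 changes of -3.90 (adjusted p = 2.05e-06) and -2.25 (adjusted p = 0.000508). Hbb-b2, an adult globin with a near-identical copy, had 548.2 and 747 at E14.5, against 155.7 and 200.3 at E12.5 (log2 change 1.77 ± 0.49, adjusted p = 0.000446), or a log2 change of 0.41 (adjusted p = 0.414) without probe sets that can bind several transcripts. The E14.5 arrays were thus lower for these 2 embryonic globins. They were higher for the adult one on a probe set that can bind several transcripts, on which its call rests. Of the 8 tested erythroid genes only these 3 passed. Alas2, the heme enzyme of red cells, had 264.1 and 194.4 at E14.5, against 154.1 and 211.4 at E12.5, and overlapped. The summed signal of the erythroid list was 11614 and 14750.0 at E14.5, against 21826 and 23730.0 at E12.5. Pf4, a platelet and macrophage chemokine, had 125.8 and 172.4 at E14.5, against 310.4 and 318.5 at E12.5 (log2 change -1.02 ± 0.41, adjusted p = 0.00715), a call that ended at adjusted p = 0.106 without E14.5 replicate 1 and 0.0562 without E12.5 replicate 1. It was the 1 gene that passed of 14 macrophage and leukocyte genes (7.14% of the list, beside 5.26% of all tested genes). With the fluidics module as a block 3 of them rose. Csf1r, the macrophage receptor, had 224.7 and 240.1 at E14.5, against 207.9 and 193.6 at E12.5. The summed signal of that list was 1752 and 1796 at E14.5, against 1469.9 and 1477 at E12.5.

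Markers of other cells that a testis preparation could hold mostly did not pass, and their part in the changes above was not tested. Of 25 endothelial genes 2 passed (8% of the list, beside 5.26% of all tested genes): 1 rose, Vwf, with 75.1 and 63.5 at E14.5, against 3 and 23.9 at E12.5, and 1 fell, Emcn, with 153.9 and 148.9 at E14.5, against 283.2 and 318.7 at E12.5, at log2 changes of 1.63 (adjusted p = 0.00697) and -0.92 (adjusted p = 0.0113); the Vwf call ended at adjusted p = 0.0799 without E14.5 replicate 1 and 0.0732 without E12.5 replicate 1 and the Emcn call at adjusted p = 0.0773 without E14.5 replicate 1, 0.0537 without E12.5 replicate 1 and 0.069 without E12.5 replicate 2. Pecam1, which marks the whole endothelium, had 72.5 and 104.7 at E14.5, against 122.3 and 167.6 at E12.5 and did not pass. With the fluidics module as a block 1 endothelial gene rose and 3 fell. The summed signal of the list was 3017 and 2931 at E14.5, against 3193 and 3545 at E12.5. Of 9 mesonephros and duct genes 0 passed in limma and 2 had an unadjusted p under 0.05, beside 2542 of all 10916 tested genes. The summed signal of that list was 1366 and 1592 at E14.5, against 1552 and 1747 at E12.5. The coelomic and surface epithelium list, with 13 tested genes, summed to 5016 and 6048 at E14.5, against 7257 and 7859 at E12.5. The ovarian and pre-granulosa list, with 14 tested genes, summed to 6797 and 7777 at E14.5, against 8505 and 9047 at E12.5. Lhx9, in both lists, was the 1 gene that passed. It is 7.69% of the coelomic and 7.14% of the ovarian list, beside 5.26% of all tested genes. The 4 tested neural genes and the 11 under the filter summed to 853 and 905 at E14.5, against 951 and 858 at E12.5, with 0 past the threshold in limma and 0 at an unadjusted p under 0.05. Of 23 skeletal muscle genes with a probe set 15 were under the filter. Of the 8 tested, 4 rose and 1, Tnni1, fell (62.5% called, beside 5.26% of all tested genes). After quantile normalization 2 rose, and with the genes of low signal also tested 2 rose. The summed signal of the list was 1934 and 1948 at E14.5, against 1499 and 1264 at E12.5. Mylpf had 200.5 and 172.8 at E14.5, against 87.2 and 59.5 at E12.5 (log2 change 1.20 ± 0.49, adjusted p = 0.00744) and Actc1 had 258.7 and 230.4 at E14.5, against 132 and 50.5 at E12.5 (log2 change 1.39 ± 0.62, adjusted p = 0.0142). None of the 4 rises kept its call in every fit without 1 of the 4 arrays. Of 6 cartilage genes 2 fell, Col9a1, with 94 and 58.8 at E14.5, against 295 and 243 at E12.5 (log2 change -1.65 ± 0.55, adjusted p = 0.0019), and Hapln1, with a log2 change of -0.83, and the list summed to 702 and 585 at E14.5, against 819 and 781 at E12.5.

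The change over the interval ending at E14.5 was also set against that over the next interval of equal length. In the same fit, the change over the 2 days to E14.5 minus the change over the 2 days from E14.5 to E16.5 passed for 98 genes, 0.898% of those tested. Of the 385 genes that rose to E14.5, 36 passed, and of the 189 that fell, 18 passed, in each case with the sign of the first change. The step difference contains that first change, by which these genes and the largest rises below were picked. Their shared sign was therefore largely set in advance, and the counts are not separate support for the first change. Both intervals share the E14.5 arrays, so a deviation of those arrays enters both with opposite sign, and the test called 12 genes without E14.5 replicate 1, 37 without E12.5 replicate 1, 42 without E16.5 replicate 1 and 19 without E16.5 replicate 2, against 238 without E14.5 replicate 2. Of the 25 largest rises 7 passed: Cyp17a1, Cyp11a1, Hao2, Hsd3b1, Nfix, Tagln and Sycp2. The step difference of Cyp11a1 was 4.52 (adjusted p = 7.77e-05), that of Cyp17a1 5.50 (adjusted p = 0.00236) and that of Hsd3b1 3.83 (adjusted p = 0.000222). At E14.5 Cyp11a1 averaged 1239 ± 381, with 3158 ± 406 at E16.5, and Hsd3b1 averaged 2026 ± 91, with 2778 ± 179 at E16.5 (SD, n = 2 each).

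Of the 7 smooth muscle genes that rose, Tagln and Acta2 passed and the other 5 did not. At E14.5 Acta2 averaged 4424 ± 201, with 4009 ± 104 at E16.5, while Tagln averaged 755 ± 34.6, with 749.5 ± 91.1 at E16.5 (SD, n = 2 each), and these had step differences of 2.09 (adjusted p = 0.0101) and 2.46 (adjusted p = 0.00742). Of the 7 rises of the meiosis list 3 passed, those of Sycp1, Sycp2 and Sycp3, with step differences of 2.62, 2.30 and 2.04 (adjusted p = 0.0155, 0.0258 and 0.0193). Of the 12 piRNA pathway rises Tdrd5 alone passed (adjusted p = 0.0336), and Nfix passed too (adjusted p = 0.0373). By contrast, the test did not pass for Scarb1 (0.65, adjusted p = 0.288), Star (-0.04, adjusted p = 0.967) or Fdps (0.54, adjusted p = 0.342), and it does not show that their intervals were alike.

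Among genes lower at E14.5, Rhox6, Kctd14 and Efhd2 passed, with step differences of -3.24, -2.76 and -3.45 (adjusted p = 0.00831, 0.000222 and 0.000222). Kctd14 averaged 4769.8 ± 293, 1502 ± 106 and 3246 ± 390.2 over the stages E12.5, E14.5 and E16.5, while Efhd2 averaged 592 ± 60.5, 184 ± 44.5 and 685 ± 92.1 (SD, n = 2 each), so E14.5 was the lowest of these 3 stages for both, for Efhd2 on this 1 probe set. Dhh had the same shape, at 403 ± 30.3, 246 ± 27.2 and 596 ± 45.3 (step difference -1.90, adjusted p = 0.018). Some germ cell genes passed with the larger change in the later interval. Dppa3 averaged 1097 ± 279, 1878 ± 90.8 and 154 ± 65.7 (adjusted p = 0.000498), and Dppa5a 3889 ± 840.2, 2468 ± 333 and 158 ± 46.9 (adjusted p = 0.000972), over the same stages. Skeletal muscle genes Mylpf and Actc1 passed too (adjusted p = 0.0109 and 0.0228), with means at E16.5 of 68.7 ± 14.3 and 82.5 ± 8.98.

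**Figure D5:**
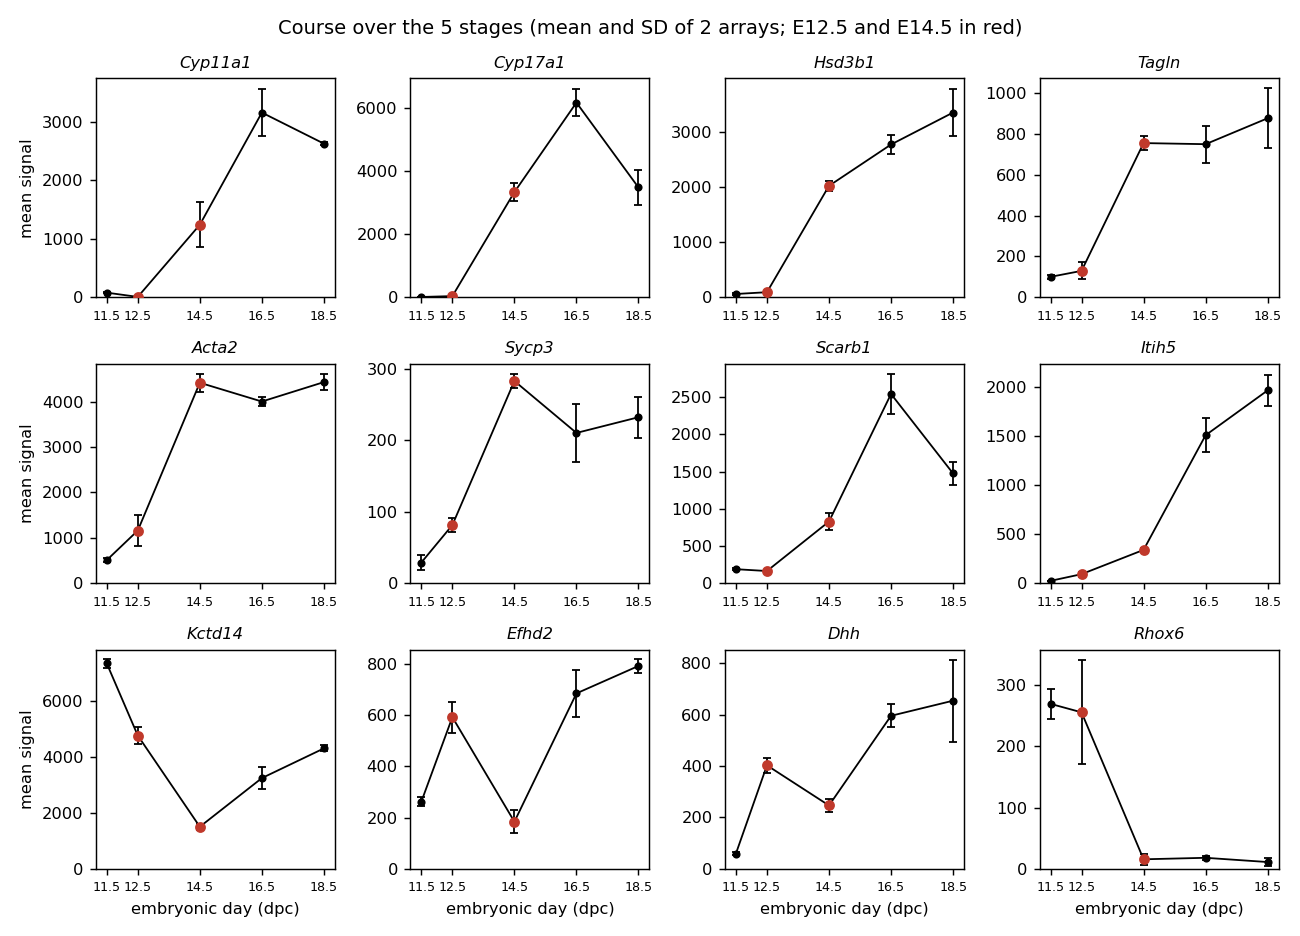
Mean signal (array units, linear axis from 0) of 12 genes at the 5 stages, with error bars of 1 SD of the 2 arrays and E12.5 and E14.5 in red. Cyp17a1, Hsd3b1, Tagln and Acta2 have their largest step in signal between E12.5 and E14.5, Cyp11a1, Scarb1 and Itih5 between E14.5 and E16.5, Itih5 keeps climbing to E18.5, and Kctd14, Efhd2 and Dhh have lower means at E14.5 than at both E12.5 and E16.5.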

How the data were processed

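Total RNA of embryonic testis was extracted with Trizol, labelled with biotin in a single cycle and hybridised to Affymetrix Mouse430_2 arrays, per the labels. The deposited values were linear intensities, 1 per probe set and array, which the authors had scaled to 1 level per array, as the trimmed means of 125 show. The sources used here name neither their software nor its settings. The other deposited files hold scanner and fluidics settings, and gave the scanning day and the fluidics module.

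Probe sets with 1 gene symbol in the platform annotation were used, with symbols updated from a RefSeq table of GRCm38.p6, and the brightest probe set by mean log2 value stood for its gene. Values were taken as log2(signal + 16), genes under the 40th percentile of mean level (a signal of 49.1) were left out, and limma 3.58.1 in R 4.3.3 was fitted with a mean per stage to all 10 arrays (lmFit, then eBayes with a trend, 5 residual and 8.59 prior degrees of freedom). Tests were two-sided at a Benjamini-Hochberg adjusted p of 0.05. The other stages entered for the estimate of spread and, at E16.5, for the step difference.

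Preparations of a stage were independent per the series' design. Each p-value sets the difference between the 2 stages against the spread between preparations, estimated over all 5 stages and moderated across genes. The 31 lists hold 707 entries, of which 653 had a probe set and 532 passed the filter. Genes without a probe set of their own were not analysed here. The comparison, the lists and the rule for named genes were chosen with earlier results of these data known. The rule took the 25 largest rises and the 25 largest falls whose stages did not overlap, clone names left out, and the members of the lists. Promoters are RefSeq sequences from 250 bases before to 50 after a start. Replicate numbers are not stated to mark a shared batch and were not taken to pair the stages. Alternatives were other pseudocounts, filters, probe set rules and normalizations, blocks for replicate number and fluidics module, a fit of the 4 arrays alone and fits without 1 array.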

Additional observations from a re-analysis of the deposited data

How the results depend on the processing

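The comparison rests on 2 arrays per stage, and its counts moved more with single arrays than with most other choices. Of the 116 list genes that changed, 50 kept their call in all 15 alternatives, 66 lost it in at least 1, and 63 lost it in a fit without 1 of the 4 arrays. The 574 genes called were 183 to 653 without 1 array. A filter at the 60th percentile called 365, a replicate block 898 and a block for fluidics module 1003, and other settings stayed within 1.5 times of 574. Deviations of same-numbered arrays correlated at r = 0.157 between E12.5 and E14.5, which also shared fluidics modules, and at 0.0044 to 0.366 over the 10 pairs of stages, 6 of them over 0.1, so pairing was not assumed and the replicate block is an alternative. With it 12 S phase, 8 mitosis and 4 Sertoli genes fell and 6 germ cell identity genes rose. The step difference called 98 genes, and 12 to 238 without 1 array. It called 49 with a pseudocount of 1, 49 with no filter, 45 with a filter at the 60th percentile, 182 after quantile normalization, 209 with the replicate block and 496 with the module block. The fit of the 4 arrays alone was not run for the step difference, which needs E16.5.

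Changes of direction were found in genes with a log2 change near 0, except Ctsl and Efhd2. With the mean of all probe sets the log2 change was -0.035 for Ctsl, 0.0089 for Gata4, 0.067 for Ggps1 and 0.62 for Ptch1. Without probe sets that can bind several transcripts it was 0.056 for Efhd2 and 0.0064 for Srf. After quantile normalization it was -0.12 for Amh, -0.050 for Pmvk, 0.13 for Mki67 and 0.20 for Ptch1, and after centring on medians -0.025 for Nr5a1. Without 1 array, the log2 change ran from -0.74 to 1.05 for Amh, from -0.27 to 0.38 for Nr5a1, from -0.13 to 0.065 for Ptch1, from -0.41 to 0.12 for Gata4, from -0.20 to 0.19 for Srf, from -0.54 to 0.23 for Pou5f1, from -0.060 to 0.55 for Ebp and from -0.046 to 0.39 for Cdkn1b. The size of the change, but not the call, also moved with the mean of all probe sets for Cxcl12, Col4a4, Cldn1, Myh11, Kcnk3 and Afp. The cause of these shifts was not tested.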

Other observations

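Some genes that changed lie next to each other, as chosen after their values were seen and with no test of how often this would occur. Hsd3b1 and Hao2 lie 14.7 kb apart on chromosome 3, and both rose (4.29 and 4.57 on the log2 scale). Alb and Afp, 14.1 kb apart on chromosome 5, both rose, and the plasma protein gene Alb had 252.4 and 201.1 at E14.5, against 69.4 and 45.4 at E12.5 (log2 change 1.74 ± 0.76, adjusted p = 0.0121). Rhox5 and Rhox6, 18.2 kb apart on chromosome X, and Gbp2b and Gbp2, 1.48 kb apart on chromosome 3, fell. Distances are from the RefSeq table of GRCm38.p6, and similar copies such as the Rhox and Gbp genes may share probes.

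Other genes of the step difference, also chosen after their values were seen, had their highest mean at E14.5 among the 3 stages from E12.5 to E16.5. Upp1, uridine phosphorylase, averaged 34.9 ± 1.77 at E12.5, 141 ± 8.84 at E14.5 and 36.5 ± 6.86 at E16.5 (SD, n = 2 each, step difference 3.21, adjusted p = 0.00201 in limma). Nts, the neuropeptide neurotensin, averaged 53.6 ± 6.43, 236 ± 7.35 and 121 ± 28.4 over the same stages (step difference 2.76, adjusted p = 0.00831). Depp1, an autophagy regulator, ran the other way, at 154 ± 47, 47.3 ± 7.07 and 176 ± 25 (step difference -3.00, adjusted p = 0.00201).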
